A study of Homo sapiens with 18 samples.

Results

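The integrated stress response and the unfolded protein response were followed through 35 genes, taken by a list of symbols from the 35044 genes of the deposited count table. The list held 18 targets of the transcription factor ATF4, 12 chaperones and degradation factors of the endoplasmic reticulum (ER), and 5 stress sensors and transcription factors. Every member had 1 row when Ensembl identifiers were matched without their version, and all 35 were among the 18335 genes that passed the filter on low counts. The study measured RNA by sequencing in breast cancer cells labelled HCC1937, to ask how the PARP inhibitor olaparib acts with and without functional BRCA1. The 18 libraries formed 6 groups of 3. HCC1937-EV, described in the study as BRCA1-mutated cells with an empty vector, and HCC1937-OE-BRCA1, described as the same cells overexpressing wild-type BRCA1, were each sequenced untreated (0 h) and after 12 h and 24 h of olaparib, 10 µmol/L by the study's text. Both sets of libraries thus share the HCC1937 name and the drug. No library without olaparib was labelled 12 h or 24 h, so the drug and the time in culture cannot be told apart. The labels call HCC1937-EV wild type and list olaparib for the 0 h libraries too, whereas the study's text describes mutated cells and an untreated 0 h group. The sources do not say whether either line is 1 clone, or whether the 3 libraries of a group came from separate cultures, so the p-values here measure only the spread between these libraries.

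In the integrated stress response, the kinases PERK (encoded by EIF2AK3), PKR, GCN2 and HRI phosphorylate the initiation factor eIF2, which lowers general translation while favouring translation of ATF4 mRNA. ATF4 then switches on genes of amino acid synthesis and uptake and, under lasting stress, the factor CHOP (encoded by DDIT3). In the unfolded protein response, PERK, IRE1 (encoded by ERN1) and ATF6 sense misfolded protein in the ER, and ATF6 and the spliced form of XBP1 switch on ER chaperones and degradation factors. ATF4, ATF6 and IRE1 are controlled largely by translation, cleavage and phosphorylation, which RNA counts per gene do not measure.

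Some upstream sequences of the members carry elements through which these branches are known to act, and the sequences below show them for genes whose values follow. The 250 bases before the annotated start were read from RefSeq (GRCh38.p14) for 33 of the 35 members. Both strands were searched for the C/EBP-ATF response element TGATGNAA, for the ER stress response element ERSE (CCAAT, 9 bases of any kind, then CCACG), for ERSE-II (ATTGG, 1 base of any kind, then CCACG) and for the XBP1 element TGACGTGG. None of these motifs contains another, although ERSE-II and ERSE end in the same CCACG box. TGATGNAA was present before ASNS, CEBPG, CHAC1 and HERPUD1, and in 3.14% of all 35116 upstream windows (3.89% of 27305 genes). Of the 16 ATF4 targets with a window, 3 held it. ERSE was present before HSPA5, HSP90B1, CRELD2, PDIA6 and XBP1, against 0.074% of all windows (0.0916% of genes). ERSE-II was present before HERPUD1 and SDF2L1, against 0.0513% of windows (0.0659% of genes). TGACGTGG was in none of the 33, and in 0.612% of all windows (0.78% of genes). A match describes the letters in the window and not binding. Capitals mark the match. Windows that overlap an annotated exon were shortened, or cut to the site with its flanks.

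The window of HSPA5 (minus strand, chr9:125241344-125241593) holds ERSE. That of HERPUD1 (plus strand, chr16:56931892-56932047) holds the reverse of TGATGNAA and then ERSE-II. That of SDF2L1 (plus strand, chr22:21642052-21642260) holds the reverse of ERSE-II, and that of XBP1 (minus strand, chr22:28800598-28800682) holds ERSE:
HSPA5: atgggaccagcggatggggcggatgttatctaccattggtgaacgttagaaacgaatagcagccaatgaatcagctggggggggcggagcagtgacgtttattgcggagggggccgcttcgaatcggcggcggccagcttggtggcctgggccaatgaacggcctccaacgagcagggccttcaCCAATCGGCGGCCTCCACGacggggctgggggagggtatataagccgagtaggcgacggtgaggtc
HERPUD1: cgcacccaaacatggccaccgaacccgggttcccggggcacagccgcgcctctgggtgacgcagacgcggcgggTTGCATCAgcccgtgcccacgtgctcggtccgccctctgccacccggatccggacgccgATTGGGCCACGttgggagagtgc
SDF2L1: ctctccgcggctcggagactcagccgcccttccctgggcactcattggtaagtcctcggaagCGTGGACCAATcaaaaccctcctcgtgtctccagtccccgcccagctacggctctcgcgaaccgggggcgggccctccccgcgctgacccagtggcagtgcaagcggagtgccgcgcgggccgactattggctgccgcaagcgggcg
XBP1: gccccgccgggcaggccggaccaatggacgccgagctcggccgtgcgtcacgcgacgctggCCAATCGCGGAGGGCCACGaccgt

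The sites of HSP90B1, ASNS and CHAC1 lie in exons annotated by GENCODE 29 and are given with their flanks. HSP90B1 (plus strand) has ERSE at chr12:103930211-103930239 (forward) and again at chr12:103930316-103930344 (reverse). ASNS (minus strand, chr7:97872458-97872487) holds TGATGNAA forward and CHAC1 (plus strand, chr15:40953251-40953280) holds it reversed:
HSP90B1 first site: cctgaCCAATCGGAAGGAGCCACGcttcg
HSP90B1 second site: gggtgCGTGGTGCGGCGCGATTGGtgggt
ASNS: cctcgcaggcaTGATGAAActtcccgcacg
CHAC1: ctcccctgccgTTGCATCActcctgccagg

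Marker genes of the libraries labelled HCC1937-EV went against that label, and BRCA1 was not clearly higher in untreated HCC1937-OE-BRCA1. Both bear on every comparison between the lines. BRCA1 stood at 118 ± 7.70 CPM (counts scaled to library size) in untreated HCC1937-EV and at 139 ± 24.04 CPM in untreated HCC1937-OE-BRCA1 (mean ± SD, n = 3), and the ranges overlapped. At 12 h of olaparib the means were 110 and 123 CPM, again with overlap. At 24 h BRCA1 stood at 94.5 ± 4.5 and 161 ± 7.1 CPM, without overlap. Of 12 breast epithelial markers (keratins, EPCAM, CDH1, CLDN4 and EGFR), 6 were under 1 CPM in untreated HCC1937-EV and 0 in untreated HCC1937-OE-BRCA1. The basal keratin KRT5 stood at 0.0825 against 1550 CPM, and the epithelial adhesion genes CDH1 at 0.659 against 434 and EPCAM at 0.0206 against 310 CPM. The summed level of the epithelial markers ranged from 3355 to 3498 CPM in the first group and from 10190 to 13110 CPM in the second. That of 11 stromal and blood markers ranged from 92.2 to 109.6 and from 20.3 to 21.2 CPM, most of it the collagen gene COL1A1 in the first group (98.6 ± 9.31 CPM). The other genes of that list that were tested went the other way. Of the 5 tested, only COL1A1 was lower in the second group (log2 fold change -3.73), while PTPRC (7.15), COL3A1 (3.22), PECAM1 (2.81) and VWF (1.41) were higher by the edgeR test described below. Of all 11 genes, 9 were under 1 CPM in untreated HCC1937-EV and 8 in untreated HCC1937-OE-BRCA1, so such fold changes can rest on very few counts. After these values were seen, 2 more genes were read. The mesenchymal gene VIM stood at 306 against 1.05 CPM, and the epithelial splicing regulator ESRP1 had 0 counts in every HCC1937-EV library against 272 CPM. The groups are called the EV and the OE libraries below, as names of the labels only. BRCA1 status and every other difference between the EV and the OE cells cannot be told apart.

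Total counts lay between 15081973 and 17571922 per library, and CPM below are scaled by TMM-normalized library sizes. The share of counts on GC-rich genes differed between libraries. Across 12169 genes in EV and 13154 in OE, the rank correlation of a library's deviation from its line with GC content ran from -0.641 (EV 12 h replicate 1) to 0.698 (EV 12 h replicate 3). It was positive in all 3 EV 24 h libraries (0.305 to 0.659) and negative in all 3 untreated EV libraries (-0.635 to -0.253). Its sign thus went along with the 24 h comparison in EV. In OE it was negative in all 3 libraries at 24 h (-0.491 to -0.335), and untreated it was -0.632, 0.325 and 0.603. A second fit with an offset for GC content and gene length is therefore given where it ends a call or moves a value by more than 1.5 times. In bulk RNA, fewer cells expressing a gene and less RNA per cell cannot be told apart. HSP90B1, PSAT1, PSPH and ATF4 have processed pseudogenes, and the sources used here do not give how reads matching several places, or strand, were handled.

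Without drug, most ATF4 targets were lower in the OE than in the EV libraries, while the ER chaperones were divided. ASNS, which makes asparagine, was 7.29-fold lower, VLDLR, a lipoprotein receptor, 7.03-fold lower, and ATF4 itself 2.32-fold lower. Of the 18 ATF4 targets, 14 were lower and 3 higher by the quasi-likelihood test of edgeR (adjusted p under 0.05 after Benjamini-Hochberg correction), with a median log2 fold change of -0.78. Of the 12 chaperones and degradation factors, 4 were lower and 2 higher, with a median of -0.07, and of the 5 sensors and factors 3 were lower and 1 higher. Over all 18335 genes tested, 39.4% were higher and 33.3% lower, and the median was 0.11, so a call between these lines was common for any gene. The members together counted 6 higher and 21 lower.

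**Figure D1:**
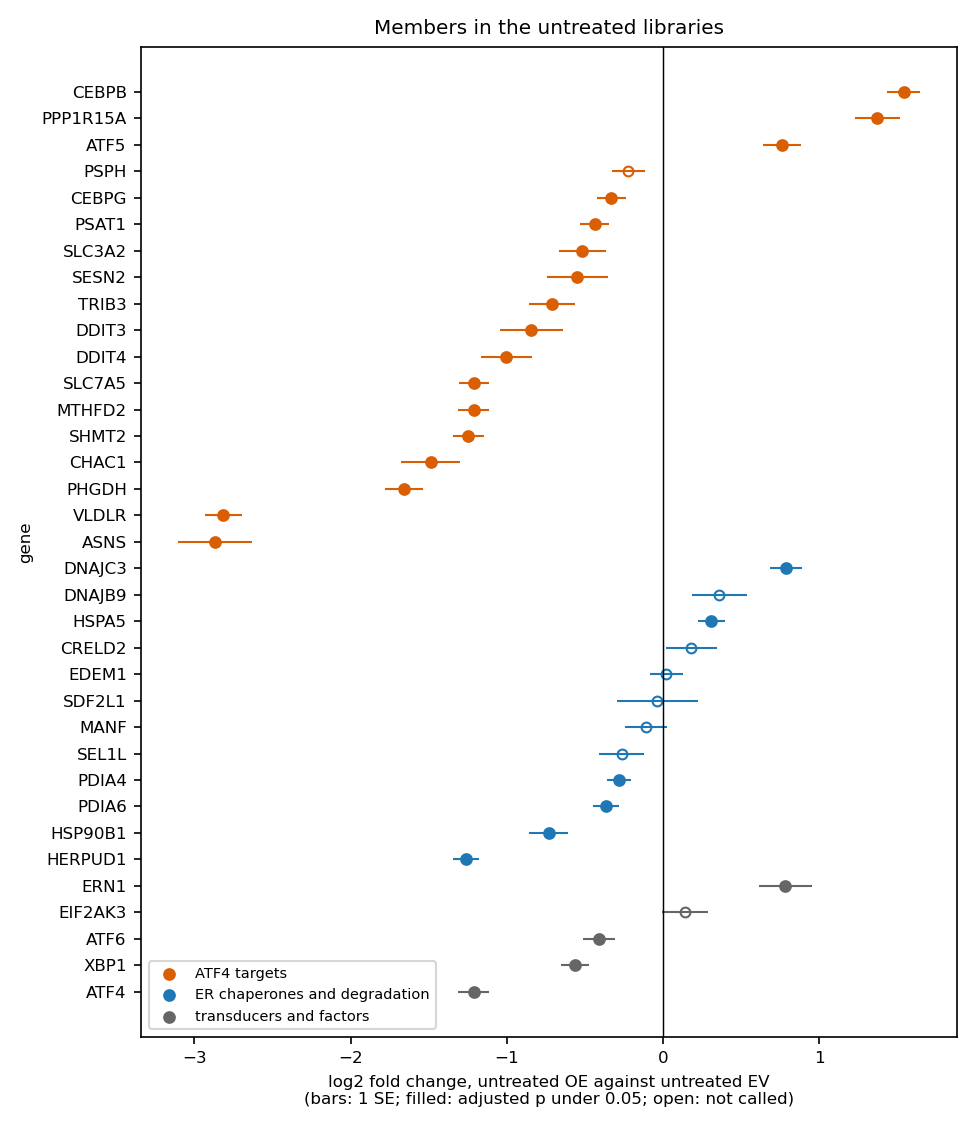
Log2 fold change of each of the 35 members between untreated OE and untreated EV libraries (x axis, OE against EV, bars 1 SE, 3 libraries a group), grouped by role on the y axis. Filled points passed an adjusted p of 0.05; 14 of 18 ATF4 targets lie left of 0 and filled, with ASNS and VLDLR below -2.8.

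Among the genes of amino acid supply, ASNS (ENSG00000070669.17) stood at 9.50, 8.90 and 7.53 CPM in the 3 untreated EV libraries and at 1.11, 1.23 and 1.20 CPM in the untreated OE libraries (log2 fold change -2.87, SE 0.24, adjusted p = 5.78e-10). PHGDH (ENSG00000092621.13), the first enzyme of serine synthesis, stood at 1203, 1376 and 1390 against 356, 473 and 428 CPM (log2 fold change -1.66, SE 0.12, adjusted p = 9.62e-11). For both genes every EV library was above every OE library. The serine and folate enzymes PSAT1, SHMT2 and MTHFD2 were also lower, with log2 fold changes of -0.44, -1.25 and -1.21, whereas PSPH at -0.22 was not called (adjusted p = 0.0608). SLC7A5 (ENSG00000103257.9) and SLC3A2 (ENSG00000168003.18) encode the light and heavy chains of the transporter of large neutral amino acids. SLC7A5 stood at 6054, 6445 and 6487 CPM in EV and at 2456, 2646 and 3105 CPM in OE (log2 fold change -1.21, SE 0.10, adjusted p = 2.9e-10). SLC3A2 stood at 1104, 1286 and 1233 and at 633, 970 and 929 CPM (log2 fold change -0.52, SE 0.15, adjusted p = 0.00458). Neither chain overlapped between the lines. Per kilobase of exonic length, SLC7A5 had the highest level of the 35 members in both untreated groups, 1334 CPM per kb in EV and 577 in OE, and ASNS the lowest in OE at 0.265 CPM per kb.

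VLDLR (ENSG00000147852.17) stood at 79.3, 80.4 and 82.5 CPM in untreated EV and at 10.7, 10.2 and 13.5 CPM in untreated OE (log2 fold change -2.81, SE 0.12, adjusted p = 9.13e-15), with no overlap. DDIT3 (ENSG00000175197.13), the gene of CHOP, stood at 14.3, 16.01 and 17.6 and 6.53, 10.8 and 9.32 CPM (log2 fold change -0.84, SE 0.20, adjusted p = 0.000874), again without overlap. Of the feedback and regulatory targets, the glutathione-degrading CHAC1, the pseudokinase TRIB3, and DDIT4 and SESN2, which restrain mTORC1, were lower by log2 fold changes between -1.49 (CHAC1) and -0.55 (SESN2), as was the ATF4 partner CEBPG at -0.33. Without EV 0 h replicate 1, OE 0 h replicate 1 or OE 0 h replicate 2 the call of SESN2 was lost (log2 fold change -0.86 to -0.34 in the 6 fits that each leave out 1 library of the compared groups), while the other 26 calls held in all 6. The same range over such fits stands in parentheses wherever a call below was lost. The 3 ATF4 targets that were higher in OE were CEBPB, a leucine zipper factor (1.54), PPP1R15A, the phosphatase subunit that reverses eIF2 phosphorylation (1.37), and ATF5 (ENSG00000169136.12), a factor related to ATF4. ATF5 stood at 37.8, 38.6 and 34.97 CPM in EV and 50.2, 71.7 and 66.4 in OE (log2 fold change 0.76, SE 0.12, adjusted p = 9.69e-06), which was 0.49 with the GC offset.

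In the ER group, HERPUD1 (ENSG00000051108.15), a ubiquitin-like protein of ER-associated degradation, stood at 125, 139 and 135 CPM in EV and at 54.2, 56.4 and 55.6 CPM in OE (log2 fold change -1.26, SE 0.08, adjusted p = 8.95e-12). HSP90B1 (ENSG00000166598.16), the ER form of HSP90, stood at 917, 761 and 839 and 577, 523 and 414 CPM (log2 fold change -0.73, SE 0.13, adjusted p = 2.26e-05). Both were lower in every OE library, and the disulfide isomerases PDIA6 and PDIA4 were lower by smaller amounts (-0.37 and -0.28). DNAJC3 (ENSG00000102580.15), a cochaperone that also inhibits PERK, went the other way, at 63.1, 55.4 and 59.4 CPM in EV and 117, 94.9 and 95.1 in OE (log2 fold change 0.79, SE 0.11, adjusted p = 9.53e-07). HSPA5 (ENSG00000044574.9), the main ER chaperone BiP, stood at 752, 740 and 751 and 971, 944 and 865 CPM (log2 fold change 0.31, SE 0.09, adjusted p = 0.00407), with no overlap. SDF2L1, MANF, CRELD2, DNAJB9, EDEM1 and SEL1L were not called, with log2 fold changes from -0.27 to 0.36.

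Among the sensors and factors, ATF4 (ENSG00000128272.17) stood at 555, 600 and 613 CPM in EV and 240, 283 and 239 CPM in OE (log2 fold change -1.21, SE 0.10, adjusted p = 6.44e-10). XBP1 (ENSG00000100219.16) stood at 144, 139 and 141 and 90.02, 105 and 91.1 CPM (log2 fold change -0.57, SE 0.09, adjusted p = 8.07e-06). ERN1 (ENSG00000178607.17) stood at 9.38, 8.04 and 9.56 and 15.2, 11.7 and 19.5 CPM (log2 fold change 0.78, SE 0.17, adjusted p = 0.00034). ATF4 and XBP1 were thus lower and ERN1 higher in every OE library. ATF6 (ENSG00000118217.7) stood at 129, 122 and 121 CPM in EV and 108, 82.9 and 88.7 in OE (log2 fold change -0.41, SE 0.10, adjusted p = 0.0013), which was -0.23 with the GC offset. EIF2AK3 (ENSG00000172071.15) overlapped between the lines, at 18.9, 18.7 and 22.02 and 26.7, 18.2 and 20.7 CPM (log2 fold change 0.14, SE 0.15, adjusted p = 0.407), and the 95% interval of the difference was -0.15 to 0.43.

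In the OE libraries, a group of ER chaperone and degradation genes was higher at 24 h of olaparib than untreated. The median of the ATF4 targets among the members stayed near 0, while ATF4 targets of another list, given below, were called in both directions. HSPA5 rose 1.32-fold, DNAJC3 1.39-fold, HERPUD1 1.35-fold and DNAJB9, a cochaperone of BiP, 1.5-fold. SLC7A5 fell 1.46-fold. At 24 h, 6 of the 12 chaperones and degradation factors were higher and 0 lower (7 of the 12 had an unadjusted p under 0.05, and over the 35 members DESeq2's Wald test called 9 higher and 2 lower), with a median log2 fold change of 0.32. Of the 18 ATF4 targets, 2 were higher and 1 lower, with a median of 0.06, and of the 5 sensors and factors XBP1 was higher. Of all genes tested, 4.71% were higher and 3.55% lower, with a median of 0.02, against 9 and 1 of the 35 members. These shares moved with single libraries, to 1572 higher and 1757 lower genes without OE 0 h replicate 1 and to between 428 and 561 higher and between 216 and 355 lower without any 1 of the other 5 compared libraries, against 864 and 651. Epithelial markers moved in the same comparison, where 5 of the 12 were lower and 0 higher. KRT7 fell by 0.67, KRT18 by 0.56, KRT8 by 0.50, KRT5 by 0.47 and CDH1 by 0.35 on the log2 scale. Their summed level was 8079 to 8877 CPM at 24 h, 11080 to 12480 CPM at 12 h and 10190 to 13110 CPM untreated. Their part in the ER result was not tested.

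Each of the 6 chaperones and degradation factors called higher rose without overlap between the groups. How many of all genes did so was not counted, so lack of overlap, here and elsewhere, only describes the values of a gene. HSPA5 stood at 1156, 1296 and 1216 CPM in the OE 24 h libraries against 971, 944 and 865 CPM untreated (log2 fold change 0.40, SE 0.09, adjusted p = 0.00764). DNAJC3 stood at 136, 141 and 150 against 117, 94.9 and 95.1 CPM (log2 fold change 0.48, SE 0.10, adjusted p = 0.00618). HERPUD1 stood at 77.8, 75.4 and 71.1 against 54.2, 56.4 and 55.6 CPM (log2 fold change 0.43, SE 0.08, adjusted p = 0.00171). These 3 genes kept their calls in all 6 fits that leave out a library of the compared groups. PDIA4 (ENSG00000155660.11), a disulfide isomerase, stood at 229, 231 and 217 against 166, 178 and 168 CPM (log2 fold change 0.40, SE 0.08, adjusted p = 0.00237) and held in all 6 as well. DNAJB9 (ENSG00000128590.5) stood at 15.6, 17.4 and 15.4 against 11.4, 11.2 and 9.64 CPM (log2 fold change 0.59, SE 0.17, adjusted p = 0.0349). EDEM1 (ENSG00000134109.11), which extracts misfolded glycoproteins for degradation, stood at 53.2, 54.96 and 54.3 against 46.4, 38.5 and 40.4 CPM (log2 fold change 0.38, SE 0.11, adjusted p = 0.0328). The calls of DNAJB9 (0.52 to 0.63) and EDEM1 (0.32 to 0.46) were lost without any 1 of the 6 libraries other than OE 0 h replicate 1.

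HSP90B1 overlapped between the groups, at 574, 644 and 610 against 577, 523 and 414 CPM (log2 fold change 0.27, SE 0.12, adjusted p = 0.186, 95% interval 0.03 to 0.52). SDF2L1 (ENSG00000128228.5), a component of the ER chaperone complex, stood at 38.3, 35.7 and 30.8 against 23.8, 56.5 and 51.2 CPM (log2 fold change -0.33, SE 0.26, adjusted p = 0.488). MANF (ENSG00000145050.19), a secreted factor retained with BiP, stood at 31.5, 32.6 and 28.5 against 26.1, 36.5 and 30.1 CPM (log2 fold change -0.002, SE 0.14, adjusted p = 1, 95% interval -0.27 to 0.26). Neither SDF2L1 nor MANF passed the test, and both overlapped, with untreated replicate 1 the lowest library for both genes. CRELD2, PDIA6 and SEL1L were not called, with log2 fold changes from -0.12 to 0.27.

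SLC7A5 was the ATF4 target that fell, from 2456, 2646 and 3105 CPM untreated and 2913, 2753 and 2801 CPM at 12 h to 1916, 1829 and 1859 CPM at 24 h (log2 fold change -0.55, SE 0.09, adjusted p = 0.00081). It was the 1 member called between 24 h and 12 h in these cells (log2 fold change -0.60, SE 0.09, adjusted p = 0.00224, against 0.862% of all genes lower). Its partner chain SLC3A2 stood at 636, 651 and 579 CPM at 24 h and overlapped with the untreated libraries (log2 fold change -0.44, SE 0.15, adjusted p = 0.0781). VLDLR rose from 10.7, 10.2 and 13.5 to 14.3, 17.01 and 18.2 CPM (log2 fold change 0.52, SE 0.12, adjusted p = 0.00827), with no overlap. Its call was lost without OE 0 h replicate 2 or OE 24 h replicate 3 (0.45 to 0.66). CEBPB rose by 0.33 (adjusted p = 0.0485) with overlap between the groups. Over the 18 fits that each leave out 1 library of the series its call held only without EV 12 h replicate 1 or 3, EV 24 h replicate 1, OE 0 h replicate 1 or 2, or OE 24 h replicate 3 (0.27 to 0.42). With the GC offset it was 0.59.

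The remaining 15 ATF4 targets were not called in OE at 24 h. ASNS did not overlap with its untreated libraries, at 2.03, 1.84 and 1.41 CPM, with a wide interval (log2 fold change 0.58, SE 0.27, adjusted p = 0.205, 95% interval 0.04 to 1.11). DDIT3 overlapped, at 10.3, 11.4 and 9.63 CPM (log2 fold change 0.23, SE 0.21, adjusted p = 0.542). ATF5 overlapped too, at 49.6, 53.8 and 51.4 CPM (log2 fold change -0.28, SE 0.12, adjusted p = 0.151). PHGDH stood at 407, 439 and 409 CPM, all within the untreated range of PHGDH (log2 fold change -0.003, SE 0.12, adjusted p = 1, 95% interval -0.24 to 0.23). PHGDH thus changed by less than the spread between its replicates.

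XBP1 rose in the OE libraries from 90.02, 105 and 91.1 CPM to 128, 138 and 125 CPM at 12 h (log2 fold change 0.45, SE 0.09, adjusted p = 0.00544). It stood at 121, 125 and 111 CPM at 24 h (log2 fold change 0.32, SE 0.09, adjusted p = 0.031). No treated library overlapped with the untreated ones. The 24 h call was lost without EV 0 h replicate 3, OE 0 h replicate 1, OE 0 h replicate 3, OE 24 h replicate 1 or OE 24 h replicate 2 (0.27 to 0.39), and the 12 h call without OE 12 h replicate 2 (0.40 to 0.52). ATF4 stood at 228, 248 and 230 CPM at 24 h (log2 fold change -0.11, SE 0.10, adjusted p = 0.541, 95% interval -0.31 to 0.08). ATF6 stood at 108, 112 and 115 CPM (log2 fold change 0.26, SE 0.10, adjusted p = 0.126). EIF2AK3 stood at 25.01, 27.4 and 29.2 CPM (log2 fold change 0.32, SE 0.15, adjusted p = 0.199). All 3 overlapped with their untreated libraries.

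**Figure D2:**
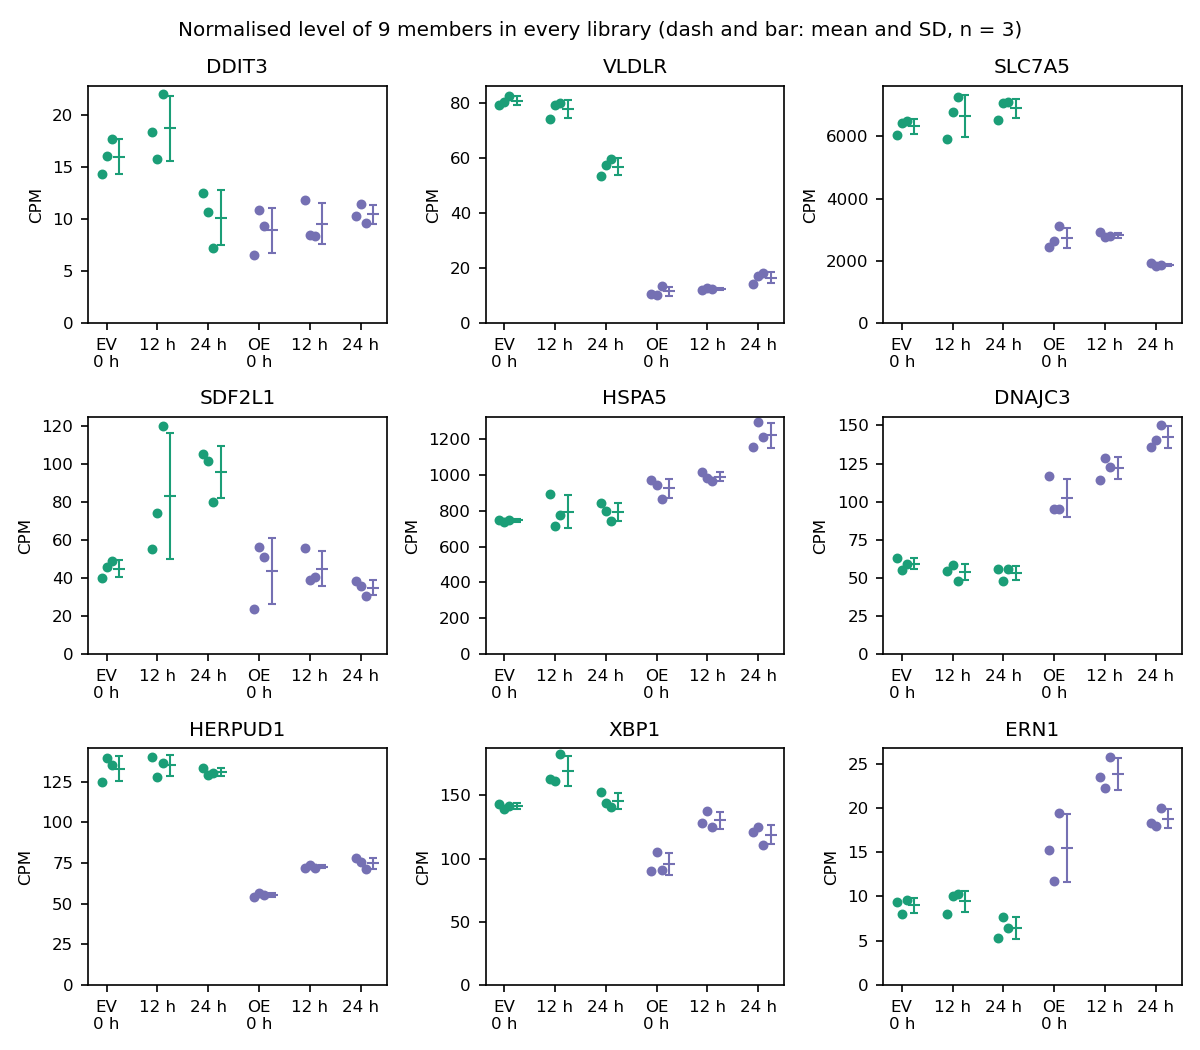
TMM-scaled CPM (y axis, from 0) of 9 members in each of the 18 libraries (points), by group on the x axis, with the mean and SD of 3 libraries beside them. HSPA5, DNAJC3, HERPUD1 and XBP1 lie higher in OE 24 h than in every untreated OE library, SLC7A5 lies lower, and DDIT3 and VLDLR lie lower in EV 24 h than in every untreated EV library.

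At 12 h in the OE libraries 3 members were higher and 0 lower, against 1.7% and 0.605% of all genes, and 13 members had an unadjusted p under 0.05. Without 1 of the OE 12 h libraries, 209 to 228 of all genes were higher and 48 to 63 lower, against 312 and 111. The 3 members called higher are on the list of ER genes or that of sensors and factors, although the upstream window of HERPUD1 also holds the reverse of TGATGNAA. Beside XBP1, HERPUD1 stood at 72.02, 73.7 and 72.1 CPM against 54.2, 56.4 and 55.6 untreated (log2 fold change 0.39, SE 0.08, adjusted p = 0.00737). ERN1 stood at 23.5, 22.3 and 25.7 against 15.2, 11.7 and 19.5 CPM (log2 fold change 0.63, SE 0.16, adjusted p = 0.0441). Neither overlapped. HERPUD1 lost its call without OE 12 h replicate 2 (0.37 to 0.41), and ERN1 without any 1 of the 18 libraries other than EV 12 h replicate 1 or 3, EV 24 h replicate 1 or 2, or OE 0 h replicate 3 (0.46 to 0.83). At 24 h ERN1 stood at 18.3, 17.99 and 19.99 CPM and overlapped with the untreated libraries (log2 fold change 0.28, SE 0.16, adjusted p = 0.318). None of the 18 ATF4 targets was called at 12 h by edgeR's test, where 7 had an unadjusted p under 0.05, and their median of 0.15 lay with 16 of 18 above 0. SESN2 came nearest, with a log2 fold change of 0.72 (adjusted p = 0.055).

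The OE calls at both times rest on the spread estimated over all 18 libraries. With the OE libraries of a comparison alone, 0 members were called at 12 h, and 1 was higher (DNAJB9) and 1 lower (SLC7A5) at 24 h. Over all genes that fit called 228 higher and 58 lower at 12 h, and 474 and 335 of 16283 at 24 h. The log2 fold changes themselves moved little, to 0.38 for HSPA5, 0.41 for HERPUD1 and 0.38 for PDIA4 at 24 h. With the GC offset the counts were 10 higher and 1 lower at 12 h and 12 higher and 2 lower at 24 h, and over all genes the split went from 312 higher and 111 lower to 568 and 613 at 12 h and from 864 and 651 to 1363 and 1687 at 24 h.

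In the EV libraries, several ATF4 targets were lower and 2 ER factors higher at 24 h of olaparib than untreated. HSPA5 did not pass the test. DDIT3 fell 1.58-fold and VLDLR 1.42-fold, whereas SDF2L1 rose 2.13-fold and MANF 1.48-fold. Of the 18 ATF4 targets, 4 were lower and 1 higher, with a median log2 fold change of -0.17. Of the 12 chaperones and degradation factors, 2 were higher and 0 lower (3 had an unadjusted p under 0.05), with a median of 0.05, and of the 5 sensors and factors ATF6 was lower. Over all genes 8.62% were higher and 5.12% lower, with a median of 0, against 3 and 5 of the 35 members. The higher count lay near the share of all genes, so it is no result about the members as a set. With the GC offset 2 members were higher and 9 lower, and over all genes the split went from 1581 higher and 939 lower to 1319 and 1236. The share over all genes rests on single libraries too. Without EV 0 h replicate 1 the calls were 334 and 128, without replicate 2 of that group 1020 and 529, and without replicate 3 they were 617 and 353. Without EV 24 h replicate 1 they were 542 and 196, and without replicate 2 they were 541 and 167. In EV at 24 h none of the 12 epithelial markers was called by edgeR, with 1 at an unadjusted p under 0.05. Of these markers, 6 were under 1 CPM in untreated EV, where a change could hardly be called.

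DDIT3 stood at 12.5, 10.7 and 7.25 CPM at 24 h against 14.3, 16.01 and 17.6 CPM untreated and 18.4, 15.8 and 22 CPM at 12 h (log2 fold change -0.66, SE 0.20, adjusted p = 0.0355 against untreated). Every 24 h library was below every untreated one, but the call was lost without any 1 of the 6 libraries other than EV 24 h replicate 1 (-0.83 to -0.47). VLDLR stood at 53.5, 57.4 and 59.7 against 79.3, 80.4 and 82.5 CPM (log2 fold change -0.51, SE 0.11, adjusted p = 0.00682), did not overlap, kept its call in all 6 such fits and was -0.30 with the GC offset. CEBPG (-0.36) and MTHFD2 (-0.30) were the other targets that fell. CEBPG lost its call without EV 0 h replicate 1 or EV 24 h replicate 2 (-0.41 to -0.33) and was -0.22 with the GC offset. MTHFD2 lost its call without any 1 of the 6, OE 12 h replicate 1 or 2, or OE 24 h replicate 2 (-0.32 to -0.27), and with the GC offset (-0.16). CEBPB rose by 0.42, a call lost without EV 0 h replicate 1 or EV 24 h replicate 1 (0.33 to 0.47), and it turned to -0.14 with the GC offset.

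The other ATF4 targets were not called in EV at 24 h. ASNS did not overlap, at 5.43, 5.60 and 7.13 against 9.50, 8.90 and 7.53 CPM (log2 fold change -0.51, SE 0.19, adjusted p = 0.0788). SLC3A2 stood at 1678, 1671 and 1519 CPM (log2 fold change 0.43, SE 0.15, adjusted p = 0.0634). SLC7A5 stood at 6538, 7061 and 7097 CPM (log2 fold change 0.12, SE 0.09, adjusted p = 0.395). Every EV 24 h library lay above every untreated one for both transporter chains, and neither passed the test. ATF5 stood at 48.1, 43.4 and 42.2 CPM (log2 fold change 0.26, SE 0.12, adjusted p = 0.143). PHGDH stood at 1614, 1616 and 1469 CPM (log2 fold change 0.24, SE 0.12, adjusted p = 0.171). Both also lay apart from their untreated libraries without passing it. ATF4 did not move beyond its spread, at 645, 600 and 559 CPM (log2 fold change 0.03, SE 0.10, adjusted p = 0.913, 95% interval -0.17 to 0.22).

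In the ER group, SDF2L1 stood at 105, 102 and 80.1 CPM at 24 h against 40.3, 45.7 and 48.97 CPM untreated (log2 fold change 1.09, SE 0.26, adjusted p = 0.0114). MANF stood at 54.7, 51.1 and 42.6 against 32.9, 34.7 and 32.3 CPM (log2 fold change 0.57, SE 0.13, adjusted p = 0.0111). Neither overlapped. SDF2L1 lost its call without EV 0 h replicate 1 or EV 24 h replicate 1 (1.01 to 1.20) and was 0.48 with the GC offset. MANF lost its call without EV 0 h replicate 1, EV 0 h replicate 3, EV 24 h replicate 1 or EV 24 h replicate 2 (0.50 to 0.66). CRELD2, a related secreted ER protein, did not overlap either but was not called (log2 fold change 0.47, SE 0.17, adjusted p = 0.0623). HSPA5 overlapped, at 844, 800 and 744 against 752, 740 and 751 CPM (log2 fold change 0.09, SE 0.09, adjusted p = 0.532, 95% interval -0.08 to 0.26). HERPUD1 at 134, 129 and 130 CPM (log2 fold change -0.02, SE 0.08, adjusted p = 0.911) and PDIA4 at 229, 211 and 198 CPM (log2 fold change 0.04, SE 0.08, adjusted p = 0.828) both lay across their untreated ranges.

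DNAJC3 stood at 55.6, 47.8 and 55.7 CPM (log2 fold change -0.16, SE 0.11, adjusted p = 0.319). DNAJB9 stood at 9.15, 7.72 and 9.41 CPM (log2 fold change 0.07, SE 0.18, adjusted p = 0.859). HSP90B1 stood at 805, 697 and 670 CPM (log2 fold change -0.21, SE 0.12, adjusted p = 0.256). All 3 overlapped with their untreated libraries. EDEM1 stood below its untreated libraries at 37.4, 34.4 and 38.6 CPM without passing the test (log2 fold change -0.16, SE 0.11, adjusted p = 0.325). Of the sensors, ATF6 fell from 129, 122 and 121 to 93.03, 91.6 and 103 CPM (log2 fold change -0.37, SE 0.10, adjusted p = 0.0241), a call lost without any 1 of the 6 libraries other than EV 24 h replicate 3 (-0.43 to -0.34) and with the GC offset (-0.12). ERN1 stood at 5.25, 7.66 and 6.41 CPM, below every untreated library (log2 fold change -0.48, SE 0.18, adjusted p = 0.074), and EIF2AK3 at 18, 19.04 and 18.3 CPM (log2 fold change -0.11, SE 0.15, adjusted p = 0.68). XBP1 stood at 153, 144 and 140 CPM (log2 fold change 0.04, SE 0.09, adjusted p = 0.796, 95% interval -0.13 to 0.22).

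At 12 h in the EV libraries 1 member was higher and 0 were lower, against 0.0273% and 0.0164% of all genes, while 8 members had an unadjusted p under 0.05. The 1 call was CEBPB, at 120, 138 and 124 CPM against 82.9, 83.2 and 87.3 CPM (log2 fold change 0.59, SE 0.10, adjusted p = 0.0408), without overlap. It was lost without any 1 of the 18 libraries other than EV 12 h replicate 1, EV 24 h replicate 1, or OE 0 h replicate 1 or 2 (0.53 to 0.63), with the EV 0 h and 12 h libraries alone, and with the GC offset (0.23). SDF2L1 already reached 55.2, 74.3 and 120 CPM at 12 h and MANF 39.7, 44.9 and 47.7 CPM, both above every untreated library, without passing the test (log2 fold change 0.89, SE 0.26, adjusted p = 0.155, and log2 fold change 0.40, SE 0.13, adjusted p = 0.171). The SDF2L1 values lay in the order of the GC correlation of these 3 libraries, lowest in replicate 1 and highest in replicate 3, and the part of that trend in the result was not tested.

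**Figure D3:**
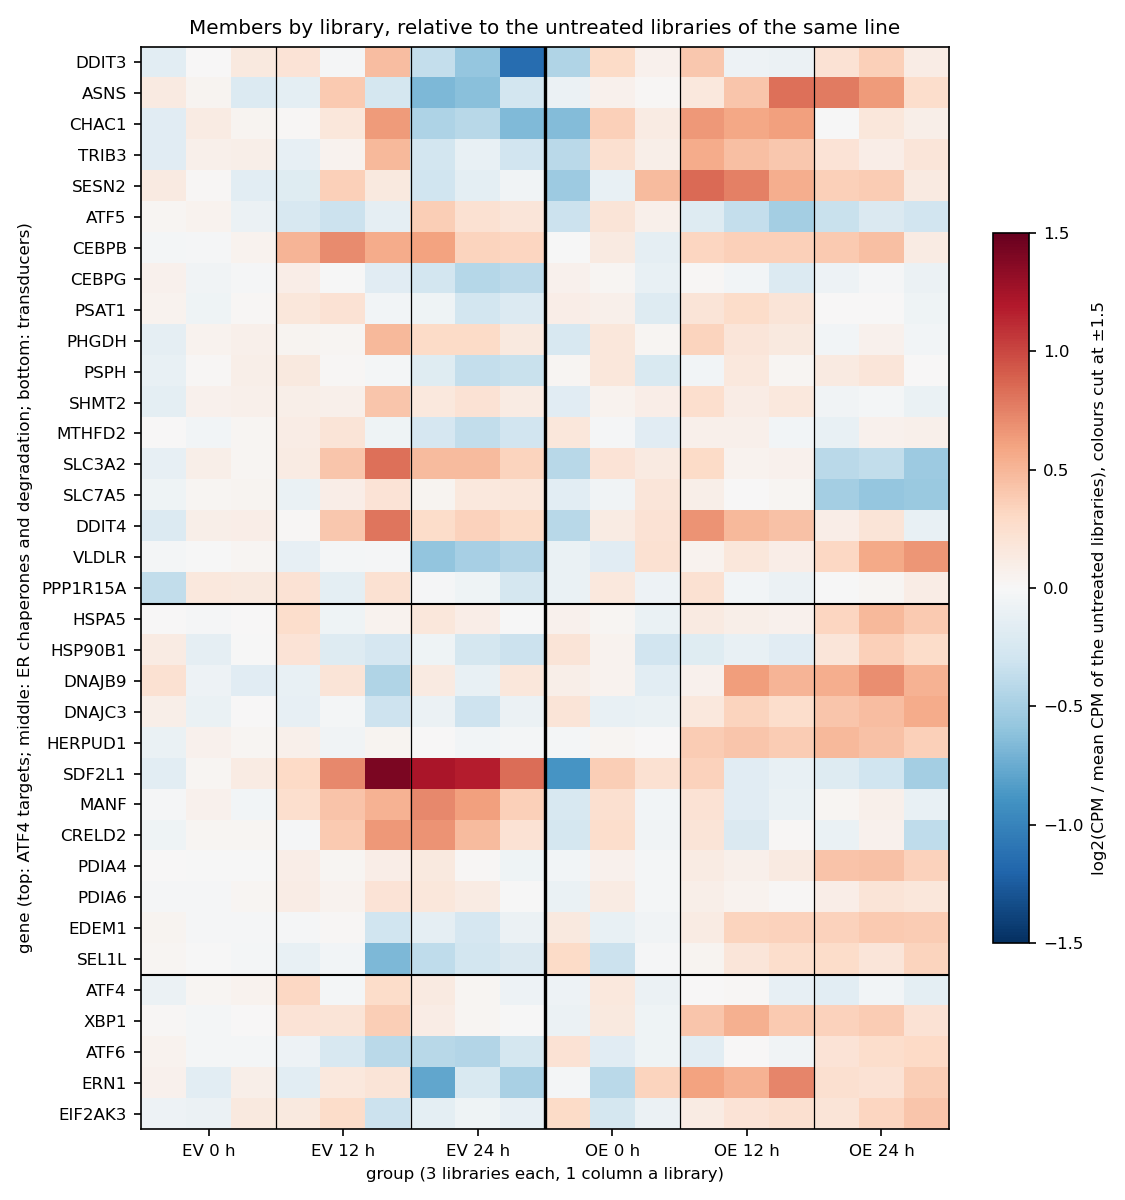
Log2 of CPM over the mean of the untreated libraries of the same line (colour, cut at ±1.5) for the 35 members (rows, by role) in the 18 libraries (columns, by group). SDF2L1 has the highest mean change of all rows in EV 12 h and EV 24 h, and 9 of the 12 chaperone rows lie above 0 in all 3 OE 24 h libraries.

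The responses of the OE and the EV libraries were then compared directly, as the difference of the log2 fold changes. At 24 h the ER genes DNAJC3, EDEM1, HERPUD1 and PDIA4 responded more positively in OE, and SDF2L1 and MANF more positively in EV. The ATF4 targets were divided too, with ASNS, DDIT3 and VLDLR more positive in OE and ATF5, SLC3A2 and SLC7A5 more positive in EV. By the same edgeR test, 9 members had a higher and 5 a lower response in OE, against 8.16% and 11.2% of all genes. The lower count lay near the share of all genes, so it is no result about the members as a set. With the GC offset the counts were 15 and 3, and over all genes 1397 and 1866 against 1496 and 2058. Without OE 0 h replicate 1 the calls over all genes were 2630 and 2872, and without EV 0 h replicate 1, EV 24 h replicate 1 or 2, OE 0 h replicate 2 or OE 24 h replicate 3 they lay from 782 to 986 and from 1280 to 1552. The chaperones counted 4 and 2 of 12 (median difference 0.41), the ATF4 targets 3 and 3 of 18 (median 0.24), and the sensors 2 and 0 of 5, with a median of 0.06 over all genes. None of DNAJC3, EDEM1, HERPUD1 and PDIA4 was called in EV on its own.

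Of the ER genes, SDF2L1 had the largest difference (-1.42, SE 0.37, adjusted p = 0.011), which was -0.45 and no longer called with the GC offset. DNAJC3 (difference 0.64, SE 0.15, adjusted p = 0.00625) and HERPUD1 (difference 0.46, SE 0.11, adjusted p = 0.00878) kept their calls in all 12 fits that leave out a library, as SDF2L1 did, although DNAJC3 was 0.28 with the GC offset. EDEM1 (difference 0.54, SE 0.15, adjusted p = 0.0176) lost its call without EV 24 h replicate 2 or OE 0 h replicate 2 (0.48 to 0.62). PDIA4 (difference 0.37, SE 0.11, adjusted p = 0.0237) lost it without EV 0 h replicate 1, EV 24 h replicate 2 or 3, or OE 24 h replicate 1 or 2 (0.32 to 0.42). MANF (difference -0.57, SE 0.19, adjusted p = 0.0395) lost it without EV 12 h replicate 2 or any 1 of the 12 libraries other than EV 24 h replicate 3 or OE 0 h replicate 1 (-0.68 to -0.44). HSPA5, at 0.31, was not called in this comparison (adjusted p = 0.0886, 95% interval 0.06 to 0.56), so its rise in OE was not shown to differ from its response in EV.

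Of the ATF4 targets, VLDLR moved in opposite directions, down in EV and up in OE (difference 1.03, SE 0.16, adjusted p = 0.000457). SLC3A2 (difference -0.87, SE 0.22, adjusted p = 0.00896) and SLC7A5 (difference -0.68, SE 0.13, adjusted p = 0.00259) differed the other way, and SLC7A5 was -0.28 with the GC offset. The calls of these 3 held in all 12 fits that leave out a library. ASNS (difference 1.09, SE 0.34, adjusted p = 0.0273) lost its call in 7 of them (0.98 to 1.23), namely without EV 0 h replicate 1, EV 24 h replicate 1 or 2, OE 0 h replicate 2 or 3, or OE 24 h replicate 1 or 2, and with the GC offset (0.90). DDIT3 (difference 0.89, SE 0.29, adjusted p = 0.0349) lost it in 9 (0.70 to 1.06), all but EV 0 h replicate 1, EV 24 h replicate 1 and OE 0 h replicate 2. ATF5 (difference -0.55, SE 0.17, adjusted p = 0.0289) lost it in 8 (-0.68 to -0.44), all but EV 0 h replicate 2, EV 24 h replicate 3, OE 0 h replicate 1 and OE 24 h replicate 2, and turned to 0.04 with the GC offset. Of the sensors, ATF6 (difference 0.63, SE 0.15, adjusted p = 0.00638) held in all 12 but was 0.24 and not called with the GC offset. ERN1 (difference 0.76, SE 0.24, adjusted p = 0.0325) was lost in 7 (0.59 to 0.96), without EV 0 h replicate 1 or 3, EV 24 h replicate 1 or 3, OE 0 h replicate 2, or OE 24 h replicate 1 or 3.

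At 12 h the edgeR test called 0 of the 35 members for a difference between the responses, against 0.376% of all genes higher and 0.142% lower, while 8 members had an unadjusted p under 0.05 and DESeq2's Wald test called 1.

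**Figure D4:**
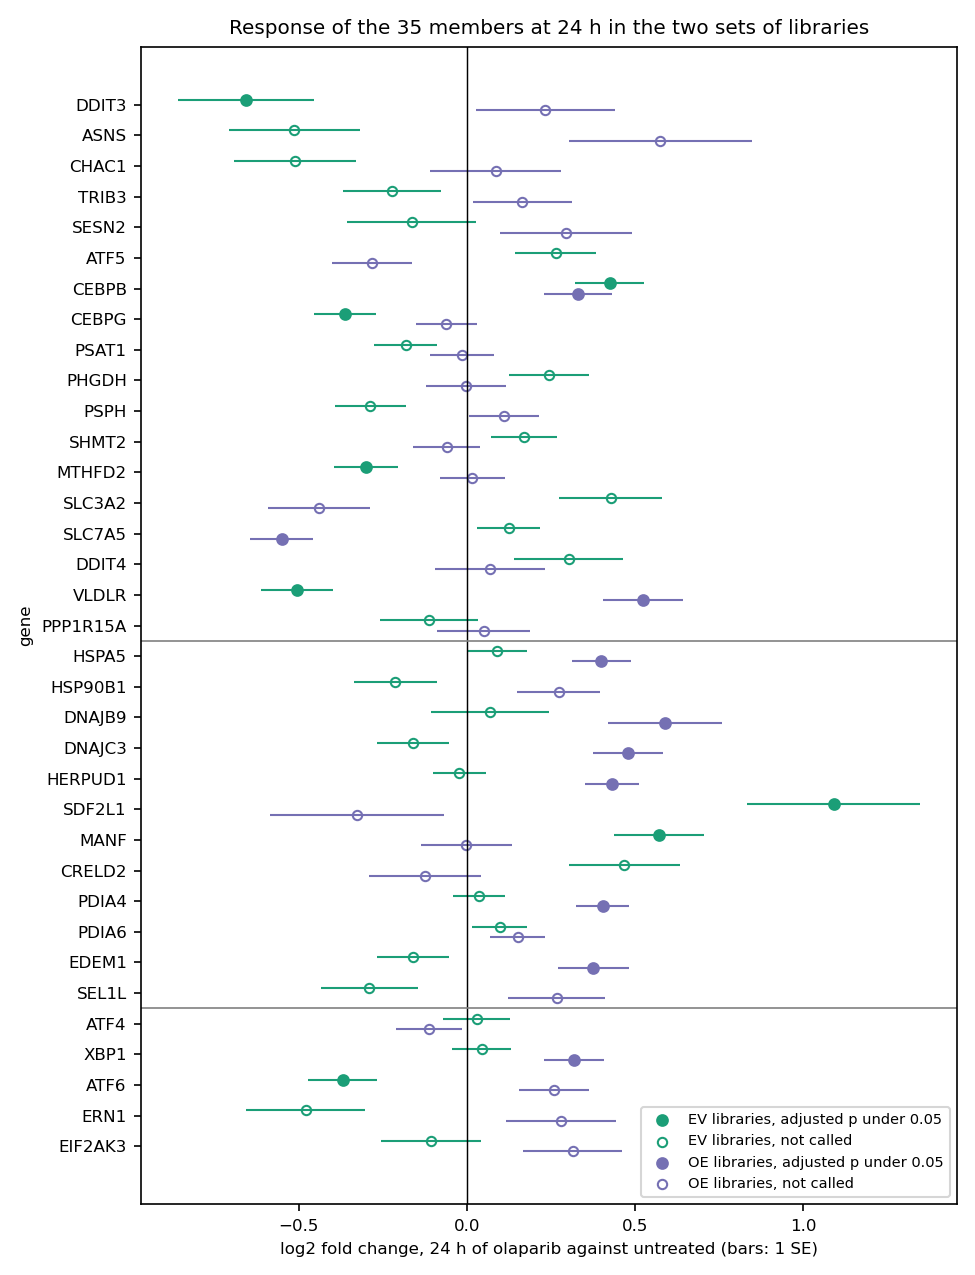
Log2 fold change at 24 h of olaparib against untreated (x axis, bars 1 SE) for the 35 members (y axis, by role) in the EV and the OE libraries, 3 a group. Filled points passed an adjusted p of 0.05; the OE points of HSPA5, DNAJC3, HERPUD1, PDIA4, EDEM1 and DNAJB9 lie filled between 0.3 and 0.6, and SDF2L1 in EV lies at 1.09.

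The ATF4 targets and the ER chaperones were also set against each other within each library, as the median change of each list from the untreated mean of the same line. In OE at 24 h the chaperones lay at 0.347 ± 0.036 and the ATF4 targets at 0.060 ± 0.038 on the log2 scale (mean ± SD, n = 3), and the difference was 0.283, 0.281 and 0.297 in the 3 libraries. In EV at 24 h the chaperones lay at 0.037 ± 0.090 and the ATF4 targets at -0.157 ± 0.059, and the difference was 0.262, 0.115 and 0.206. The chaperones thus lay above the targets in all 6 libraries, through higher chaperones in OE and lower targets in EV. At 12 h both lists lay slightly above 0 in both lines, and the difference was -0.075 ± 0.102 in EV and -0.077 ± 0.040 in OE. In the untreated libraries it ran from -0.049 to 0.097 in EV and from -0.127 to 0.174 in OE, where OE replicate 1 had the lowest ATF4 targets of the 6 (-0.156). The OE 24 h difference was 0.122 with the GC offset and 0.186 with means in place of medians, and the EV 12 h difference turned to 0.051 with the GC offset. No test was made of these list values.

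**Figure D5:**
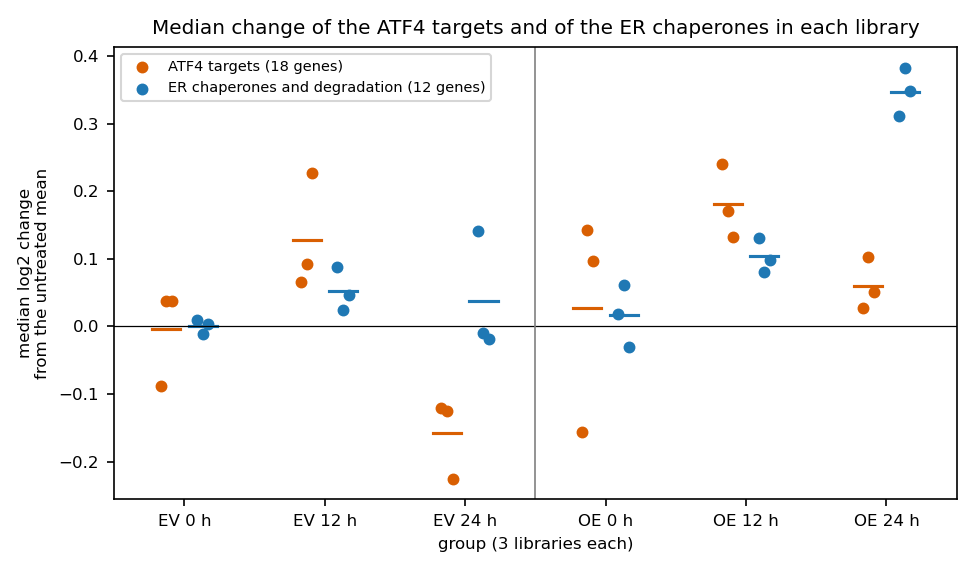
Median log2 change from the untreated mean of the same line (y axis) of the 18 ATF4 targets and the 12 ER chaperones and degradation factors in each library (points, lines mark the mean of 3), by group (x axis). In OE 24 h the chaperone points lie between 0.311 and 0.383 and the target points between 0.028 and 0.102, and in EV 24 h the target points lie below 0.

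Other genes of the same pathways, which were on lists of their own, were read beside the members. Of 24 further ATF4 targets, 7 were higher and 0 lower in OE at 12 h, 6 were higher and 3 lower in OE at 24 h, and 1 was higher and 6 lower in EV at 24 h. The shares were 29.2% higher in OE at 12 h against 1.7% of all genes, 25% and 12.5% in OE at 24 h against 4.71% and 3.55%, and 4.17% and 25% in EV at 24 h against 8.62% and 5.12%. ATF3, a stress-induced partner of ATF4, rose in OE from 11.6, 12.2 and 11.2 to 20.5, 20.6 and 24.2 CPM (log2 fold change 0.90, SE 0.11, adjusted p = 1.15e-05). The secreted stress factor GDF15 rose from 7.82, 14.2 and 12.7 to 25.2, 29.6 and 23.97 CPM (log2 fold change 1.18, SE 0.18, adjusted p = 0.000168). NDRG1 rose by 0.93 in the same libraries. SLC7A11, the cystine transporter, fell in EV from 59.5, 54.7 and 60.8 to 27.04, 25.2 and 26.7 CPM (log2 fold change -1.15, SE 0.16, adjusted p = 0.000485). It rose in OE from 39.6, 28.7 and 28.7 to 52.1, 57.3 and 60.5 CPM (log2 fold change 0.81, SE 0.16, adjusted p = 0.00268), and the responses differed (difference 1.96, SE 0.23, adjusted p = 2.71e-05, and 1.38 with the GC offset). In EV, GADD45A rose by 0.78 (0.45 with the GC offset), XPOT fell by 0.59 (-0.34 with the offset) and SLC7A1 fell by 0.40. The 24 h calls against untreated but that of SLC7A1 held in all 6 fits that leave out a library. SLC7A1 lost its call without any 1 of the 6 libraries other than EV 24 h replicate 3 (-0.48 to -0.30).

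Of 12 cytosolic tRNA synthetases, many of which are ATF4 targets, 1 rose in OE at 24 h, 8.33% against 4.71% of all genes, and 2 fell in EV at 24 h, 16.7% against 5.12%. WARS1, which is also induced by interferon, stood at 409, 407 and 371 CPM untreated, 883, 888 and 820 CPM at 12 h and 766, 774 and 748 CPM at 24 h (log2 fold change 0.95, SE 0.08, adjusted p = 1.37e-07). The other 11 were not called in OE at 24 h. In EV at 24 h GARS1 fell by 0.37, a call lost without EV 0 h replicate 1 or 3 or EV 24 h replicate 2 or 3 (-0.42 to -0.34). TARS1 fell by 0.33, a call lost without any 1 of the 6 libraries (-0.37 to -0.30) and with the GC offset (-0.19).

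Of 37 further genes of ER folding, transport and degradation tested, 3 were higher and 0 lower in OE at 24 h (31 of the 37 had a positive log2 fold change), and 4 were higher and 3 lower in EV at 24 h. These shares lay near those of all genes, with 8.11% against 4.71% higher in OE, and 10.8% against 8.62% higher and 8.11% against 5.12% lower in EV, so the counts are no result about the list. In OE at 24 h the calls of these ER genes and of the further ATF4 targets did not repeat the contrast between the member lists. In OE, SEC24D, a coat protein of ER export, rose from 29.3, 21.2 and 23.4 to 40.6, 42.1 and 46.6 CPM (log2 fold change 0.81, SE 0.17, adjusted p = 0.00482), and CREB3L2, a membrane-bound factor related to ATF6, and TXNDC11 rose by 0.60 and 0.32. The call of SEC24D held in all 6 fits that leave out a library, while that of CREB3L2 was lost without OE 0 h replicate 2 or 3 or OE 24 h replicate 1 or 3 (0.43 to 0.81). TXNDC11 lost its call without OE 0 h replicate 3 or any OE 24 h library, and without EV 0 h replicate 3, EV 24 h replicate 2, or OE 12 h replicate 1 or 3 (0.28 to 0.38). In EV, the degradation lectin OS9 rose from 111, 126 and 119 to 168, 176 and 170 CPM (log2 fold change 0.53, SE 0.09, adjusted p = 0.00185), which held in all 6, SELENOK and SEC61B rose by 0.63 and 0.55, and HSPA13 fell by 0.50. SELENOK was lost without EV 0 h replicate 1 or 3 or EV 24 h replicate 1 (0.44 to 0.76), and SEC61B without these or EV 24 h replicate 2 (0.47 to 0.62). HSPA13 was lost without EV 0 h replicate 1 or EV 24 h replicate 2 (-0.57 to -0.43) and was -0.25 with the GC offset.

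Of 17 genes of eIF2 control, 2 were higher and 0 lower in OE at 24 h, and 1 was higher and 1 lower in EV at 24 h. The shares were 11.8% higher in OE against 4.71% of all genes, and 5.88% in each direction in EV against 8.62% and 5.12%, which is near the background. EIF2AK2, which encodes the eIF2 kinase PKR and is itself induced by interferon, rose in OE from 399, 241 and 265 to 426, 446 and 469 CPM (log2 fold change 0.57, SE 0.16, adjusted p = 0.0302). It fell in EV from 191, 174 and 179 to 120, 114 and 142 CPM (log2 fold change -0.53, SE 0.16, adjusted p = 0.0328), and the responses differed (difference 1.10, SE 0.22, adjusted p = 0.00304, and 0.61 with the GC offset, still called). Untreated OE replicate 1 stood close to the treated OE libraries. The OE call was lost without any 1 of the 6 libraries other than OE 0 h replicate 1 (0.43 to 0.82) and the EV call without any other than EV 24 h replicate 3 (-0.63 to -0.47), which was -0.21 with the GC offset. OMA1, the mitochondrial protease that relays stress to HRI, rose by 0.52 in OE, a call lost without OE 0 h replicate 2 or OE 24 h replicate 3 (0.47 to 0.55). PPP1CA, the catalytic subunit of the eIF2 phosphatase, rose by 0.53 in EV, a call lost without any other than EV 24 h replicate 3 (0.49 to 0.60) and with the GC offset (0.16).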

How the data were processed

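RNA was extracted with TRIzol and libraries were prepared with the NEBNext Ultra II kit. For 18 libraries the authors deposited a count of reads for each gene, whole and not normalized. The submitters' processing notes name HISAT2, featureCounts, DESeq2 and the build GRCh38 (hg38), and versions, annotation and strandedness are not given in the sources used here. The single-library tables and the joint table held equal counts. Identifiers were matched to symbols without their version (34966 of 35044).

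Counts were analysed with edgeR 4.0.16 in R 4.3.3, with TMM normalization, filterByExpr by group (18335 genes kept) and the quasi-likelihood test on a model with 1 mean per group over the 18 libraries. The study's text gives no model for differential expression. A call needed an adjusted p under 0.05 (Benjamini-Hochberg, over all genes tested). The biological coefficient of variation was 12.9%. Levels are CPM with TMM-normalized library sizes, per kilobase of exonic length (GENCODE 29) where genes are compared. The 95% intervals are normal intervals from the SE. The script was tested on simulated counts with known changes. These were drawn independently for each gene and library, without a GC trend, so that test does not bear on the trend seen here.

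Values per library are given for members called at 24 h or in OE at 12 h with an absolute log2 fold change of at least 0.5, for those called in a difference between the lines, for the 3 largest calls of each role between the untreated lines, and for ATF4, HSPA5, XBP1, DDIT3, ERN1, EIF2AK3 and ATF6. Values of CEBPB at 12 h and of CRELD2 at 24 h in EV were added after they were seen. Of other lists, up to 4 called genes a line at 24 h are named. The members and lists were chosen with earlier results of these data known. The alternatives were DESeq2 1.42.0 (size factors, Wald test), other filters, a log2 fold change over 0.5, the compared groups alone, a replicate block, an offset for GC content and gene length, and each library left out in turn. Every replicate pair differed by more than sampling noise (lowest chi-square per degree of freedom 3.25).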

Additional observations from a re-analysis of the deposited data

Results flagged for a closer look

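For 14 of the 35 members the response to 24 h of olaparib differed between the OE and the EV libraries by a test of the difference itself (edgeR's quasi-likelihood test of the interaction, Benjamini-Hochberg adjusted p under 0.05). By the same test 8.16% of all genes had a higher and 11.2% a lower response in OE, so such a call was common for any gene. The differences are log2 fold changes in OE minus those in EV. The ER genes were SDF2L1 (-1.42, with the GC offset -0.45 and not called), DNAJC3 (0.64, with the offset 0.28), MANF (-0.57), EDEM1 (0.54), HERPUD1 (0.46) and PDIA4 (0.37). The ATF4 targets were ASNS (1.09, with the offset 0.90 and not called), VLDLR (1.03), DDIT3 (0.89), SLC3A2 (-0.87), SLC7A5 (-0.68, with the offset -0.28) and ATF5 (-0.55, turned to 0.04 with the offset), and the sensors ERN1 (0.76) and ATF6 (0.63, with the offset 0.24 and not called). The correlation with GC content was positive in the EV 24 h and negative in the OE 24 h libraries, and its part in these differences was not tested beyond the offset. The cell identity of the EV libraries and BRCA1 status cannot be told apart in any of them.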

How the results depend on the processing

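Counts below are members called higher and lower, out of 35, followed by the counts over all genes in the same order. DESeq2's Wald test called 5 and 8 in EV at 24 h, 6 and 0 in OE at 12 h, 9 and 2 in OE at 24 h, and 1 and 0 for the difference at 12 h. Over all 18335 genes it called 2037 and 1428, 454 and 215, 1067 and 1092, and 211 and 146. Without a filter on low counts the counts were 4 and 0 in EV at 12 h, 5 and 5 in EV at 24 h, 6 and 0 in OE at 12 h, 6 and 2 in OE at 24 h, and 0 and 1 for the difference at 12 h. Over all 35044 genes that fit called 608 and 210, 1923 and 1149, 379 and 177, 770 and 1367, and 253 and 391. With an absolute log2 fold change over 0.5 they were 2 and 2 in EV at 24 h, 1 and 0 in OE at 12 h, and 2 and 1 in OE at 24 h. Over all genes that threshold left 1135 and 474, 279 and 82, and 636 and 408. With the compared groups alone they were 0 and 0 in EV at 12 h, 8 and 10 in EV at 24 h, 0 and 0 in OE at 12 h, and 1 and 1 in OE at 24 h. Over all genes those fits called 0 and 0, 2777 and 2396 of 14825, 228 and 58, and 474 and 335. With the GC and length offset they were 0 and 1 in EV at 12 h, 2 and 9 in EV at 24 h, 10 and 1 in OE at 12 h, 12 and 2 in OE at 24 h, 4 and 0 for the difference at 12 h, and 15 and 3 for that at 24 h. Over all 18076 genes that fit called 56 and 92, 1319 and 1236, 568 and 613, and 1363 and 1687 against untreated. For the differences it called 296 and 349, and 1397 and 1866. The cause of these moves was not tested. The offset turned CEBPB in EV at 24 h from 0.42 to -0.14 and ATF5 in the difference at 24 h to 0.042, with and without the replicate block. It moved the chaperones minus the ATF4 targets to 0.051 in EV at 12 h (reversed), to -0.006 in OE at 12 h and to 0.122 in OE at 24 h, and means in place of medians gave 0.186 there.

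Replicate numbers are shared between groups, but same-numbered libraries did not deviate together in every pair of groups (correlations from -0.591 to 0.718), so the numbers were not taken as pairs. Replicate 1 of EV 0 h, EV 12 h and OE 0 h did (0.482, 0.473 and 0.718), and the correlations of these libraries with GC content were -0.635, -0.641 and -0.632. With the replicate block the counts were 0 and 0 in EV at 12 h, 3 and 5 in EV at 24 h, 3 and 0 and then 9 and 1 in OE, and 10 and 5 for the difference at 24 h. Over all genes that fit called 0 and 1, 1537 and 898, 303 and 105, 812 and 566, and 1490 and 2010. With the replicate block and the GC and length offset the member counts were 0 and 1, 2 and 9, 9 and 1, 12 and 2 in the same order, then 4 and 0 and 15 and 2 for the differences at 12 h and 24 h. Over all genes that fit called 37 and 63, 1295 and 1203, 554 and 624, and 1316 and 1618 against untreated. For the differences it called 277 and 314, and 1363 and 1829.

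With each of the 18 libraries left out in turn, higher and lower calls ranged from 0 to 4 and from 0 to 0 in EV at 12 h, from 0 to 5 and from 1 to 7 in EV at 24 h, from 0 to 5 and from 0 to 1 in OE at 12 h, from 5 to 12 and from 1 to 3 in OE at 24 h, from 6 to 7 and from 21 to 22 between the untreated lines, from 0 to 1 and from 0 to 1 for the difference at 12 h, and from 5 to 13 and from 3 to 6 for that at 24 h. Over all genes, EV at 12 h ranged from 0 to 383 and from 1 to 79. EV at 24 h ranged from 334 to 2114 and from 128 to 1565. OE ranged from 209 to 365 and from 48 to 161 at 12 h. At 24 h OE ranged from 428 to 1572 and from 216 to 1757. The untreated lines ranged from 6993 to 7529 and from 5855 to 6268. The differences ranged from 42 to 286 and from 6 to 486 at 12 h. At 24 h they ranged from 782 to 2630 and from 1280 to 2872. Among the members, EV 24 h lost all its higher calls without EV 0 h replicate 1 or EV 24 h replicate 1, and OE 12 h without OE 12 h replicate 2. The chaperones minus the targets ranged from -0.124 to -0.023 in EV and from -0.100 to -0.061 in OE at 12 h, and from 0.160 to 0.234 and from 0.282 to 0.290 at 24 h. With about 16077299 counts in the median library and 3 libraries a group, changes of low genes such as ASNS had wide intervals.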

Other observations

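Heat shock and mitochondrial chaperones were read beside those of the ER. In OE at 24 h, 0 of 18 cytosolic heat shock genes were higher and 3 lower by the quasi-likelihood test of edgeR with Benjamini-Hochberg correction. FKBP4 fell by 0.48, HSPA8, the constitutive HSP70, by 0.44, and DNAJB1 by 0.28. In EV at 24 h, 4 were higher and 2 lower. The shares were 16.7% lower in OE against 3.55% of all genes, and 22.2% and 11.1% in EV against 8.62% and 5.12%. In EV CRYAB rose by 0.97, DNAJB1 by 0.58 and HSPA8 by 0.37, and HSP90AA1 fell by 0.61. HSPA8 and DNAJB1 were thus called in opposite directions. With 1 library left out, the calls of FKBP4, HSP90AA1 and of DNAJB1 in EV held in all 6 fits. HSPA8 in OE was lost without OE 24 h replicate 1 (-0.51 to -0.38), DNAJB1 in OE without any of the 6 but OE 0 h replicate 1, and without EV 0 h replicate 3 or OE 12 h replicate 2 (-0.34 to -0.24), HSPA8 in EV without any of the 6 but EV 24 h replicate 3 (0.36 to 0.38) and CRYAB without EV 0 h replicate 1 or 2 or EV 24 h replicate 1 or 2 (0.69 to 1.18).

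Of 12 mitochondrial chaperones and proteases, 0 were higher and 2 lower in OE at 24 h, and 3 were higher and 1 lower in EV at 24 h. The shares were 16.7% lower in OE against 3.55% of all genes, and 25% and 8.33% in EV against 8.62% and 5.12%. HSPE1, the mitochondrial cochaperonin, rose in EV from 33.5, 38.6 and 39.5 to 81.2, 68.7 and 57.1 CPM (log2 fold change 0.89, SE 0.23, adjusted p = 0.0152) and fell in OE from 129, 276 and 202 to 127, 132 and 105 CPM (log2 fold change -0.74, SE 0.22, adjusted p = 0.04). Every EV 24 h library lay above the untreated ones, while in OE the groups overlapped through untreated replicate 1. TRAP1 fell by 0.35 in OE. In EV, HTRA2 and LONP1 rose by 0.55 and 0.47 and HSPD1 fell by 0.38, and the GC offset gave 0.30 and 0.15 for the first pair, neither called. HSPE1 in EV lost its call without EV 0 h replicate 1 or EV 24 h replicate 1 or 2 (0.76 to 1.01), and in OE without any of the 6 but OE 0 h replicate 1, and without EV 0 h replicate 3 or EV 24 h replicate 2 (-0.98 to -0.45). TRAP1 lost its call without OE 0 h replicate 2 or OE 24 h replicate 2 or 3 (-0.41 to -0.31), LONP1 without EV 0 h replicate 1 or 3 or EV 24 h replicate 1 or 2 (0.40 to 0.53) and HSPD1 without EV 0 h replicate 1 or 3 or EV 24 h replicate 2 or 3 (-0.43 to -0.35). HTRA2 lost it without any of the 6, OE 12 h replicate 2 or 3, or any OE 24 h library (0.48 to 0.60).

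Enzymes of cysteine synthesis differed between the untreated lines by more than any member. CBS stood at 52.6, 63.4 and 57.7 CPM in EV and 0.554, 1.54 and 1.70 in OE (log2 fold change -5.51, SE 0.25, adjusted p = 2.46e-14), and CTH at 67.6, 75.1 and 78.6 and 4.74, 7.70 and 4.66 CPM (log2 fold change -3.69, SE 0.17, adjusted p = 4.35e-14). Both were named after their values were seen.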
